A study of Felis catus with 23 samples.

Results

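The vessel wall microRNAs (miRNAs) followed here in cat serum were the 4 names hsa-miR-221-3p, hsa-miR-222-3p, hsa-miR-143-3p and hsa-miR-145-5p. Their members were the miRNA probes that carry one of these 4 names on an Agilent array designed for human miRNAs, which gave 8 probes, 2 for each name, out of 4944 miRNA probes for 2026 names. Each name is the human one that the array gives, without a match to cat sequence. The serum was that of 11 cats with HCM (hypertrophic cardiomyopathy, in which the heart muscle thickens) and 12 healthy cats, and each cat had 1 array. The labels gave no strain, age, genotype, treatment or stage of disease for either group, and blood of both groups was left to clot for 20 min and spun at 600 g for 5 min before the serum was stored at -80 °C. The purpose of the design was to compare the serum miRNAs of the diseased and the healthy cats.

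miR-221 and miR-222 are cut from a single primary transcript and share their seed, the short stretch near the 5′ end that pairs with target messages. Endothelial cells and vascular smooth muscle both make them, and they are known for repressing the receptor KIT and inhibitors of the cell cycle. miR-143 and miR-145 also come from a shared primary transcript, but have different seeds. They are abundant in smooth muscle, where the transcription factor SRF and its partner myocardin drive them and where they help to keep the contractile state. Serum holds no vessel wall cells, so a level here is that of miRNA carried free, in particles or released from blood cells during clotting, and these sources cannot be told apart in such samples.

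A probe was read in up to 15 spots on each array, and it was called detected where the scanner software marked 50% or more of those spots as well above background. Arrays were scaled to a common 75th percentile, values under an intensity of 6.26 were raised to that floor, and levels are log2 of the scaled intensity, so the floor lies at 2.65. Each name was represented by its brighter probe. Between 322 and 611 names were detected per array. The arrays sat on 3 slides, with 3 HCM and 4 healthy arrays on slide 1 and 4 of each on slides 2 and 3. HCM arrays always occupied the first row of a slide and healthy arrays the second, so that row and group cannot be told apart. Differences were tested with limma over all 543 names detected on at least 6 arrays, with Benjamini-Hochberg adjustment over those names. Across them 0 of 543 passed an adjusted p of 0.05 (0%), with a lowest adjusted p of 0.303, while 36 (6.63%) had an unadjusted p under 0.05, 20 of them higher (3.68%) and 16 lower (2.95%) in HCM serum. Of the members, miR-221-3p, miR-222-3p and miR-145-5p entered the test, none passed it and none had an unadjusted p under 0.05.

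The 4 names differed in how often they were detected. miR-145-5p was well above background on all 23 arrays, miR-222-3p was detected on 20 and miR-221-3p on 16, both close to the floor, and miR-143-3p was detected on none. This is a statement about each probe against its own background. Levels of different probes were not compared with one another, because probes differ in how strongly they bind.

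**Figure D1:**
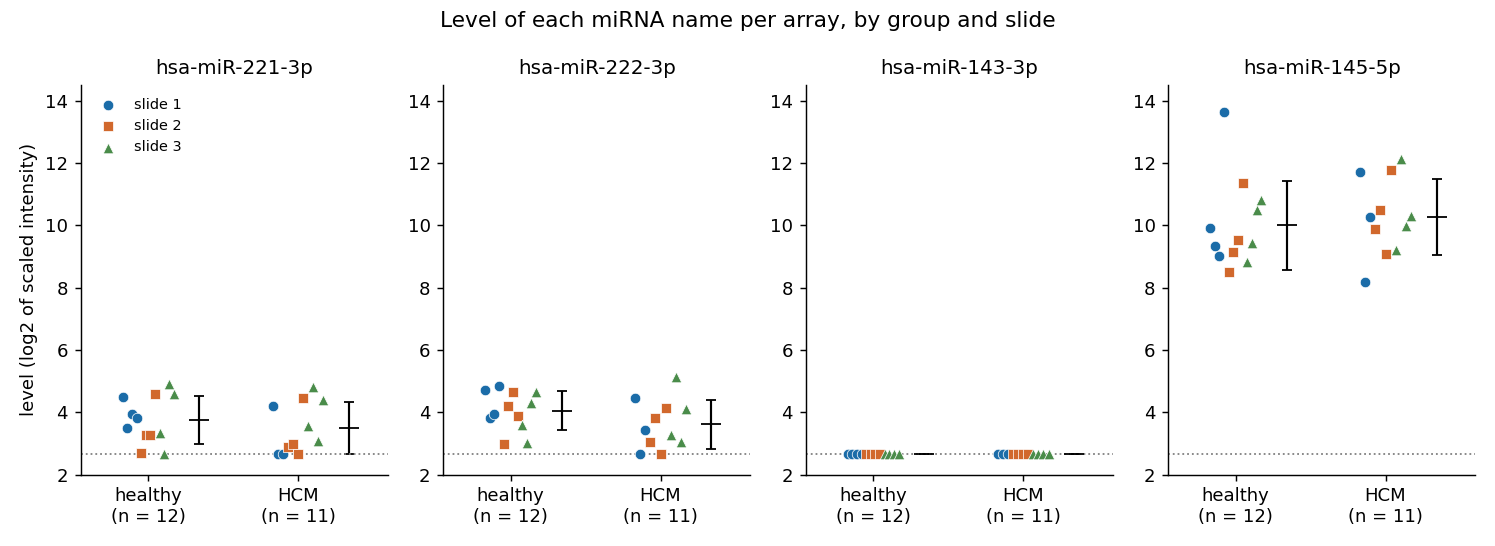
Level of each name on each array, as log2 of the scaled intensity of its brighter probe, for 12 healthy and 11 HCM arrays. Colours and shapes mark the slides, bars show mean ± SD, and the dotted line is the floor at 2.65. miR-145-5p lies far above the floor on all arrays, miR-221-3p and miR-222-3p just above it, and miR-143-3p on it throughout.

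miR-145-5p, the smooth muscle miRNA of the miR-143/145 cluster, varied more between cats than nearly all other tested names. Its scaled intensity in HCM serum was 290 at the lowest (HCM replicate 2), 1230 at the median and 4478 at the highest (HCM replicate 10). In healthy serum it was 363 at the lowest (healthy replicate 18), 712 at the median and 12671 at the highest (healthy replicate 26). The groups overlapped almost fully: 10 of 11 HCM arrays lay inside the healthy range and 1 below it, and healthy replicate 26 lay above all HCM arrays. Over all 23 arrays the highest value was 43.7 times the lowest. The SD of its log2 level was 1.31, the 9th largest of the 543 tested names, whose median SD was 0.54. The floor narrows the spread of dim names, while miR-145-5p lay far above it on all arrays. How far this raised its rank was not tested.

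On the log2 scale miR-145-5p was at 10.27 ± 1.22 (SD, n = 11) in HCM and 9.99 ± 1.42 (SD, n = 12) in healthy serum. The difference was 0.27 (SE 0.52, 95% interval -0.79 to 1.34), with an adjusted p of 0.890 in the limma fit. It was smaller than the spread between cats, although 8 of 11 HCM arrays lay above the healthy median. The sign was not the same on every slide. The difference within slide 1 was -0.42, against 0.67 within slide 2 and 0.52 within slide 3. The slide with the negative difference holds healthy replicate 26, and leaving out that array alone raised the difference over all slides to 0.60, while leaving out HCM replicate 10 lowered it to 0.09. The spread between cats was far larger than that between spots, for which the coefficient of variation within an array had a median of 3.71% for the brighter probe. As each cat had 1 array, spread between cats here also includes that from handling and scaling each array. Spots within an array do not measure that part.

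Both miR-145-5p probes were detected on all arrays and ordered the cats nearly alike, with r = 0.987 between them over the 23 arrays, a description in which both values come from the same hybridisation. The brighter probe is A_25_P00012193 and the dimmer A_25_P00012192. The ratio between them, which does not depend on how an array is scaled, differed between the groups. In HCM serum the log2 ratio of the brighter to the dimmer probe was 1.33 at the lowest, 1.52 at the median and 1.68 at the highest. In healthy serum it was 0.92 at the lowest, 1.15 at the median and 1.40 at the highest. The groups overlapped in part: 9 of 12 healthy arrays lay below all HCM arrays, and 6 of 11 HCM arrays above all healthy ones.

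The mean log2 ratio was 1.50 ± 0.14 (SD, n = 11) in HCM and 1.18 ± 0.17 (SD, n = 12) in healthy serum, that is, the brighter probe gave 2.82 and 2.27 times the signal of the dimmer one. The difference of 0.32 (SE 0.06, 95% interval 0.19 to 0.44) was larger than the spread between cats. This comparison was chosen after its values were seen, and it was therefore set against all 236 such ratios, over 214 names, in which both probes were detected on every array. In that limma fit 1 of 236 ratios (0.424%) passed an adjusted p of 0.05, the one of miR-145-5p, with an adjusted p of 0.0092, while 28 (11.9%) had an unadjusted p under 0.05. Ratios of other names differed as much or more without passing. Examples were 0.62 for miR-371a-5p (limma adjusted p 0.078), 0.50 for miR-3679-5p (0.331) and -0.38 for miR-150-3p (0.358). Their sign depends on which probe is the reference. A difference of this size was therefore not particular to miR-145-5p. A 2-sided permutation test of the miR-145-5p ratio alone with 100000 resamples gave p = 0.00011, and p = 0.0003 with the groups permuted within slides. The difference was positive within each slide, at 0.22, 0.30 and 0.41 in the order of the slides. Leaving out any single array kept the difference between 0.29 and 0.34 and its adjusted p between 0.0042 and 0.024.

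**Figure D2:**
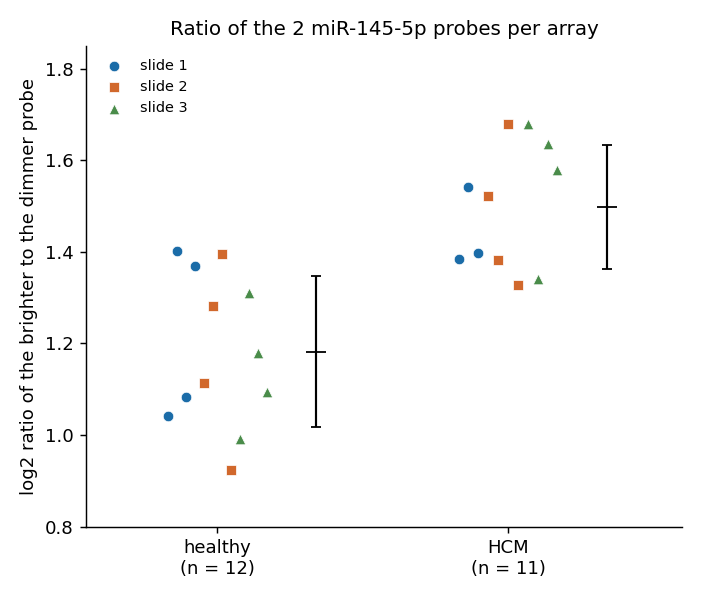
Log2 ratio of the brighter to the dimmer miR-145-5p probe on each of 12 healthy and 11 HCM arrays, marked by slide, with mean ± SD beside them; the vertical axis does not start at 0. HCM arrays lie between 1.33 and 1.68 and healthy arrays between 0.92 and 1.40, and the order of the group means is the same on all 3 slides.

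The error of the ratio from the spread of spots within an array had a median of 0.018 (SE, log2), well under the SD between cats in either group. The choice of probe sets the direction in which miR-145-5p itself differed: HCM minus healthy was 0.27 with the brighter probe and -0.04 with the dimmer one, and neither difference passed a test. The ratio also moved with the level of the name, as read by the brighter probe, which both measures share. Within HCM arrays it was lower where the level was higher (r = -0.772, permutation p = 0.0059, adjusted over 3 relations 0.0177; rho = -0.818, permutation p = 0.0038, adjusted 0.0114), and r was -0.855 without HCM replicates 2 and 10 and -0.940, -0.942 and -0.990 within slides 1, 2 and 3 (3, 4 and 4 arrays). Within healthy arrays r was 0.112 (permutation p = 0.75, adjusted 0.75) and rho 0.042 (permutation p = 0.91, adjusted 0.91), and over all 23 arrays r was -0.08 (permutation p = 0.72, adjusted 0.75) and rho -0.09 (permutation p = 0.67, adjusted 0.91). This relation was looked at after the data were seen, whether it differs between the groups was not tested, and its part in the difference of the ratio was not tested. Whether the row on the slide, which is the same for all arrays of a group, moves this ratio cannot be told apart from group.

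miR-143-3p, the cluster partner of miR-145-5p, was not detected on any array with either probe. Its probe A_25_P00012183 gave mean processed intensities between -0.74 and 1.22, with 0 spots well above background. Its other probe, A_25_P00012184, ranged from -1.43 to 5.16. On that probe some spots passed the scanner's call on 2 arrays, 26.7% of the spots on HCM replicate 10 and 6.67% on healthy replicate 26, which were also the arrays with the highest miR-145-5p level of their groups. Its mean lay over 2 standard errors above 0 on 5 of 23 arrays, but 24.3% of the 3486 probes detected on no array did so on 5 or more arrays. No level, difference or ratio of miR-143-3p is therefore given, and the agreement of the miR-143/145 pair could not be measured. A dim probe bounds its own signal and shows no absence of the miRNA from cat serum.

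miR-222-3p, expressed by endothelium and by proliferating smooth muscle, was detected in 9 of 11 cats with HCM and in 11 of 12 healthy cats (difference of -9.85 percentage points, Fisher's exact test 2-sided, p = 0.59, adjusted over the 4 names 1.0). Its level in HCM serum was at the floor of 2.65 at the lowest (HCM replicates 2 and 7), 3.42 at the median and 5.14 at the highest (HCM replicate 10). In healthy serum it was 2.99 at the lowest, 4.07 at the median and 4.85 at the highest. Of the HCM arrays, 7 of 11 lay below the healthy median and 2 below the whole healthy range, while 1 lay above that range.

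The group means of miR-222-3p were 3.61 ± 0.79 (SD, n = 11) in HCM and 4.05 ± 0.63 (SD, n = 12) in healthy serum. The difference of -0.44 (SE 0.28, 95% interval -1.02 to 0.15) had an adjusted p of 0.799 in the limma fit and did not exceed the spread between cats. Within slides 1, 2 and 3 it was -0.82, -0.52 and -0.0042. Its dimmer probe, A_25_P00012125, was at the floor on all 23 arrays and detected on 1, so the value of this name rests on the probe A_25_P00012126.

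miR-221-3p, its cluster partner, was detected in 8 of 11 cats with HCM and in 8 of 12 healthy cats (difference of 6.06 percentage points, Fisher's exact test 2-sided, p = 1.0). Its level in HCM serum was at the floor at the lowest (HCM replicates 2, 3 and 7), 3.09 at the median and 4.83 at the highest (HCM replicate 10). In healthy serum it was at the floor at the lowest (healthy replicate 15), 3.66 at the median and 4.92 at the highest (healthy replicate 16). All 11 HCM arrays lay inside the healthy range, 7 of them below the healthy median.

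The means of miR-221-3p were 3.49 ± 0.83 (SD, n = 11) and 3.75 ± 0.76 (SD, n = 12), and the difference of -0.27 (SE 0.32, 95% interval -0.92 to 0.38) had an adjusted p of 0.815 in the limma fit. By slide it was -0.77, -0.20 and 0.10 on slides 1, 2 and 3. Its probes A_25_P00010689 and A_25_P00010690 were detected on the same number of arrays, 16 each, and had r = 0.937 over the 23 arrays.

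For miR-222-3p, the 2 HCM arrays at the floor were the 2 on which it was not detected, and for miR-221-3p the same held for 3 HCM arrays. Level and detection parted for miR-221-3p on healthy arrays. On healthy replicates 18, 20, 23 and 25 miR-221-3p was not detected, yet its scaled level was 2.68, 3.28, 3.50 and 3.94, above the floor. The intensities that set their scaling were 296, 90.5, 171 and 101, beside a median of 283 over the 23 arrays, so that 3 of these arrays were scaled up. On healthy replicate 15, the brightest array, 93.3% of its spots were well above background and its scaled level was at the floor. The 75th percentile used for scaling was 8.22 ± 0.49 (SD, n = 11, log2) on HCM and 7.80 ± 0.91 (SD, n = 12) on healthy arrays (permutation test 2-sided, p = 0.188). Without scaling the differences changed sign, to 0.20 for miR-221-3p and 0.05 for miR-222-3p. The median difference of all tested names moved as well, from -0.10 to 0.23. Relative to that median, miR-222-3p stood at -0.34 with and -0.18 without scaling, miR-221-3p at -0.17 and -0.04, and miR-145-5p at 0.37 and 0.46.

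**Figure D3:**
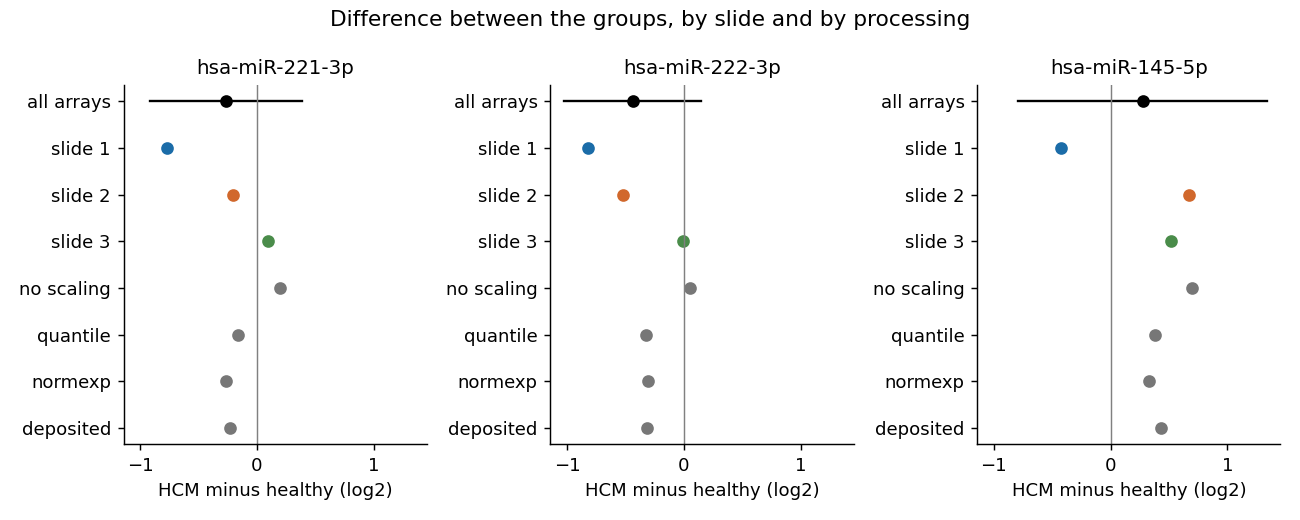
HCM minus healthy on the log2 scale for the 3 tested names: over all 23 arrays with its 95% interval, on each slide alone, and under 4 other ways to process the arrays. The intervals of all 3 names include 0, and points of each name lie on both sides of it.

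Levels of the cluster partners that could both be measured moved together over the cats. Whether their shared transcript plays a part in this was not tested. Over the 23 arrays miR-221-3p and miR-222-3p had Pearson's r = 0.771 (permutation p = 4e-05, adjusted over the 3 pairs of members 0.00012) and Spearman's rho = 0.767 (permutation p = 5e-05, adjusted 0.00015). Without the arrays farthest from the median of miR-221-3p, HCM replicate 10 and healthy replicate 16, r was 0.743. It was 0.880 within HCM and 0.626 within healthy arrays, and 0.867, 0.556 and 0.912 within slides 1, 2 and 3. Both names were at the floor on the same 2 arrays, HCM replicates 2 and 7.

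Members of different clusters were also correlated. miR-222-3p and miR-145-5p had r = 0.662 (permutation p = 0.0004, adjusted 0.0006) and rho = 0.656 (permutation p = 0.0008, adjusted 0.0012), with r = 0.560 without HCM replicates 2 and 10. miR-221-3p and miR-145-5p had r = 0.589 (permutation p = 0.0029, adjusted 0.0029) and rho = 0.602 (permutation p = 0.0029, adjusted 0.0029), with r = 0.553 without HCM replicate 10 and healthy replicate 16. Within slides r of the first of these pairs was 0.736, 0.409 and 0.855, and of the second 0.364, 0.861 and 0.759. Whether the correlation within the cluster exceeds those across clusters was not tested.

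**Figure D4:**
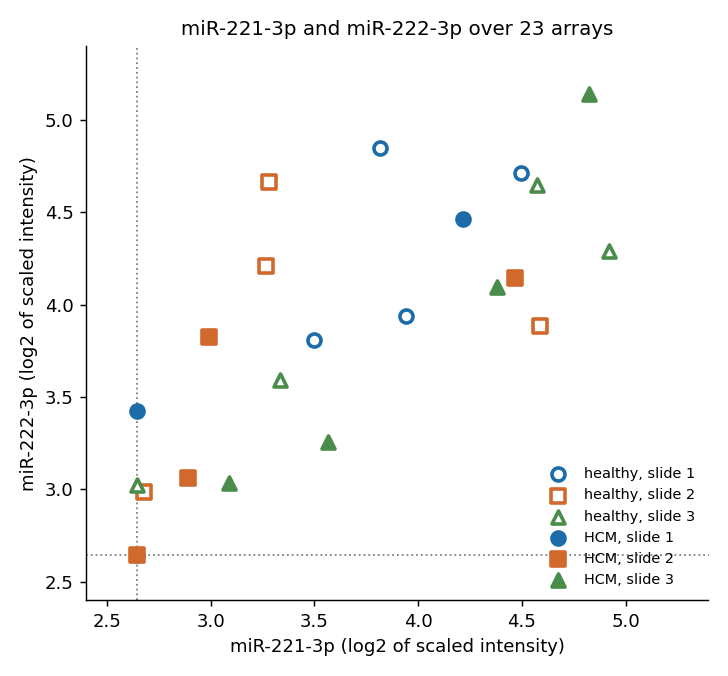
Level of miR-222-3p against that of miR-221-3p, both as log2 of scaled intensity, for 23 arrays; open symbols are healthy and filled symbols HCM, and shapes and colours mark the slides. Dotted lines are the floor, where HCM replicates 2 and 7 of slides 1 and 2 lie on top of each other. Arrays high in one name tend to be high in the other, in both groups.

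Cluster partners were not each other's nearest names. Ranked by r over the 23 arrays, miR-222-3p was number 7 of 542 for miR-221-3p, and miR-221-3p was number 16 of 542 for miR-222-3p. The 5 names most like miR-221-3p were miR-142-5p (r = 0.825), miR-29b-3p (0.794), miR-106b-5p (0.784), miR-484 (0.781) and miR-361-5p (0.772). Those most like miR-222-3p were miR-29a-3p (r = 0.911), miR-140-3p (0.903), miR-361-5p (0.896), miR-342-3p (0.879) and miR-29c-3p (0.861). For miR-145-5p they were miR-23a-3p (r = 0.741), miR-29c-3p (0.696), miR-24-3p (0.695), miR-30a-5p (0.693) and miR-361-5p (0.692). Among all these names, miR-142-5p, miR-29a-3p and miR-342-3p are on the leukocyte list described below, and miR-106b-5p is on the red cell list. miR-24-3p is on both the platelet list and the vessel wall list. The other names are on none of these lists. The median r with all other tested names was 0.06, 0.01 and -0.10 for miR-221-3p, miR-222-3p and miR-145-5p. These correlations share the arrays and their scaling, and none is tested.

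The log2 ratio of miR-221-3p to miR-222-3p, both dim, was -0.12 ± 0.40 (SD, n = 11) in HCM and -0.30 ± 0.61 (SD, n = 12) in healthy serum. The groups overlapped, with HCM arrays between -0.83 and 0.33 and healthy arrays between -1.38 and 0.70. The difference of 0.17 did not exceed the spread (permutation test 2-sided, p = 0.438), and it was 0.05, 0.31 and 0.10 on slides 1, 2 and 3.

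The opposite arms of the 4 hairpins, miR-221-5p, miR-222-5p, miR-143-5p and miR-145-3p, were detected on 0 of 23 arrays. Only the arms 221-3p, 222-3p and 145-5p gave a signal above background in this serum on this array.

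Other miRNAs of the vessel wall and endothelium were described as a list. Of its 30 names, 29 were on the array. The name not on it, miR-210-3p, is another name of miR-210, which was on the array. Of the 29 names, 13 (44.8%) were detected on no array, among them miR-10a-5p, miR-125b-5p and both arms of miR-199a. Over all 2026 names that share was 64.3%. miR-126-3p, the endothelial miRNA, was detected on 1 array. The list shares miR-126-3p, miR-24-3p, miR-92a-3p and miR-155-5p with the blood cell lists. On at least 6 arrays 9 names (31.0%) were detected and thus tested, beside 26.8% of all names. They split into 4 with a positive and 5 with a negative difference, 0 of them past the test, with a median of -0.13 beside -0.10 over all tested names. The 6 with the smallest p are given as values of HCM minus healthy: miR-21-5p -0.52 (SE 0.40), miR-26a-5p -0.54 (SE 0.47), miR-155-5p -0.15 (SE 0.14), miR-497-5p 0.31 (SE 0.49), miR-24-3p 0.30 (SE 0.75) and miR-663a -0.20 (SE 0.31). Their adjusted p in the limma fit lay between 0.799 and 0.936.

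Blood cells release miRNAs into serum during clotting, and their markers were measured beside the members. Of 9 red cell names 6 were tested, 4 with a positive and 2 with a negative difference; of 8 platelet names 4 were tested, 2 in each direction; of 9 leukocyte names 6 were tested, all 6 with a negative difference. None of these passed the test. The median difference of the tested red cell, platelet and leukocyte names was 0.04, -0.06 and -0.27, beside -0.10 over all tested names. Without scaling between arrays the median over all tested names moved to 0.23, so the direction of a list depends on the scaling too. The summed scaled intensity of the red cell list ran from 2356 to 14729 in HCM and from 1971 to 20073 in healthy serum. That of the platelet list ran from 50.3 to 476 in HCM and from 66.7 to 528 in healthy serum, and that of the leukocyte list from 126 to 1913 in HCM and from 202 to 826 in healthy serum. Detected on 0 arrays were miR-144-5p of the red cell list and miR-191-5p of the platelet list. The difference between the red cell miRNA miR-451a and miR-23a-3p, a measure of red cell lysis, was -1.45 ± 1.32 (SD, n = 11) in HCM and -0.58 ± 1.75 (SD, n = 12) in healthy serum (permutation test 2-sided, p = 0.198).

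Neither this lysis measure nor array brightness was correlated with a member past the threshold. With the lysis measure r was 0.288 for miR-221-3p, 0.227 for miR-222-3p and -0.188 for miR-145-5p. With brightness it was -0.186, -0.175 and 0.241 in the same order. Over these 6 relations the adjusted permutation p was 0.426 throughout, and rho lay between -0.160 and 0.226. The lysis measure subtracts miR-23a-3p, the name with the highest r with miR-145-5p (0.741). Its relation to miR-145-5p is thus not an independent one. Within slides 1, 2 and 3, r with this measure was -0.12, -0.17 and 0.75 for miR-221-3p. For miR-222-3p it was -0.26, 0.42 and 0.58, and for miR-145-5p -0.60, -0.35 and 0.53. With so few arrays per slide these relations do not settle how far red cells contribute. The part of blood cells in the levels of the members was not tested further.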

How the data were processed

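Spot intensity on a linear scale was given by Agilent Feature Extraction 10.7.3.1, per the file headers, as a processed signal corrected for background and not normalized across arrays. Other columns, per the file headers, hold a flag of 0 or 1 for a spot. The authors' deposited series table holds log2 values for 1758 probes, 6 of the 8 member probes among them; it lacks both miR-143-3p probes. Where the processed signal was over 8, those values followed it with r between 0.987 and 0.9998 and slopes between 0.950 and 0.980. Lower signals, among them some of miR-221-3p and miR-222-3p, were left out of this check. Scale and direction of the deposited values are thus known, while their normalization is not given in the sources used here. Their medians in HCM replicates 1, 2, 3 and 5 to 12 were 3.26, 3.15, 3.18, 3.18, 3.17, 3.19, 3.30, 3.20, 3.275, 3.12 and 3.195, and in healthy replicates 14 to 23, 25 and 26 they were 3.15, 2.98, 3.295, 3.23, 3.12, 3.25, 3.30, 3.26, 3.31, 3.235, 3.30 and 3.125.

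Control spots and outlier spots (1.81% to 3.95% of miRNA spots per array) were dropped before the spots of a probe were averaged. No miRNA spot was saturated. Arrays were scaled to their 75th percentile, taken from the 508 probes that every array detected, and floored at 6.26, the 5th percentile of scaled signals well above background. The number of arrays limits the precision. HCM and healthy arrays were compared with limma 3.58.1 in R 4.3.3 (lmFit and eBayes, 2-sided, no covariates). Single values were tested by permutation with 100000 resamples in numpy 2.4.6 (Python 3.11.15, with pandas 2.3.3 and scipy 1.17.1). Figures were drawn with matplotlib 3.10.9. Tested on simulated data with 543 names, the fit recovered 16.9% of differences of 0.5, 81% of those of 1 and 98.6% of those of 2 on the log2 scale; on 236 simulated ratios it recovered 82.5% of differences of 0.3. These shares are pooled over all changed names or ratios. Recovery for a single name with a wide spread, such as miR-145-5p (SD 1.31, median over tested names 0.54), was not tested.

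The alternatives were other scalings, floors, filters, probe and spot summaries, normexp background correction with an offset of 50, the deposited log2 values, slide as a block, array brightness as a covariate, single slides and leaving out each array. The normexp correction used the median spot signal, as the files hold no mean signal column. The members and lists were chosen with earlier results of these data known. Beside the members and their opposite arms, the names given are the 5 with the highest r with each tested member and the 6 of the vessel wall list with the smallest p. A planned comparison of seeds was left out, since mature sequences were not used here. The probe ratio was added after seeing the data.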

Additional observations from a re-analysis of the deposited data

How the results depend on the processing

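No tested member passed an adjusted p of 0.05 under any alternative run. No scaling between arrays turned miR-221-3p to 0.20 and miR-222-3p to 0.055, and the dimmer probe, chosen after seeing the data, turned miR-145-5p to -0.042. Calling a name detected from 1 spot turned the detection difference of miR-221-3p to -18.9 percentage points, and requiring all spots turned that of miR-222-3p to 13.6. The count of all tested names past the threshold rose from 0 to 1 with the total gene signal (miR-5700), 2 with a floor 0.5 times as high (miR-376c-3p and miR-381-3p), 4 with the deposited values (miR-381-3p, miR-4751, miR-513a-3p and miR-5700) and 1 by the permutation test (miR-381-3p); the cause was not tested. The correlation of miR-221-3p and miR-222-3p stayed between 0.61 and 0.98 under the 8 other ways to process the arrays, and was 0.912 within slide 3. Leaving out 1 array gave -0.40 to -0.16 for miR-221-3p, -0.59 to -0.34 for miR-222-3p, 0.09 to 0.60 for miR-145-5p and 0.07 to 0.26 for the log2 ratio of miR-221-3p to miR-222-3p. The probe ratio of miR-145-5p kept its direction and call with normexp (0.32), the deposited values (0.31) and slide as a block (0.32). miR-143-3p, detected on no array, gave no difference, correlation or ratio that could be recomputed, and with each cut on the spots the probe that represents it was detected on 0 arrays. No paired analysis was possible because the groups share no replicate numbers.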
